A study of Mus musculus with 8 samples.

Results

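The genes described here encode maternal factors that package oocyte chromatin or protect genomic imprints: Dppa3, Npm2, Npm3, H1foo, Trim28, Zfp57, Zfp445 and Ctcf. These 8 genes were chosen by name from the 54838 gene entries of a read count table, matched through GENCODE M21 symbols, and all 8 passed the filter on low counts. Total RNA was sequenced from mouse oocytes, with 5 to 10 oocytes in each library and 2 libraries in each of 4 groups. The groups were BAF250aGKO oocytes at metaphase of the second meiotic division (knockout MII), wildtype oocytes at MII (control MII), BAF250aGKO oocytes at the germinal vesicle stage (knockout GV) and wildtype oocytes at GV (control GV), all of strain C57BL/6. The series title attributes the deletion to Gdf9-cre, a recombinase driven by the promoter of an oocyte growth factor gene. The labels give no age for the animals and do not say that libraries came from separate animals, so each p-value reflects only how far these libraries spread.

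A growing oocyte stores proteins that the zygote will need before its own genome is active. NPM2 and NPM3 are nucleoplasmins, acidic chaperones of histones, and NPM2 helps to unpack sperm chromatin and to organise the nucleolus-like body of the oocyte. H1FOO, also named H1F8, is the linker histone of oocytes. DPPA3, also called STELLA or PGC7, binds chromatin marked by H3K9me2 and keeps maternal DNA methylation from conversion by TET3 after fertilisation; in oocytes it also holds the methylation cofactor UHRF1 out of the nucleus. ZFP57 and ZFP445 are KRAB zinc finger proteins that bind methylated imprinting control regions and recruit TRIM28, a corepressor that brings in the histone methyltransferase SETDB1. CTCF is the insulator protein that stops cohesin loops, and at some imprinted loci it binds the unmethylated allele only.

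On mm10, the build named in the submitters' processing notes, the genes lie on 7 chromosomes. H1foo (ENSMUSG00000042279) spans chr6:115944938-115950236 and Dppa3 (ENSMUSG00000046323) chr6:122626410-122630272, both on the plus strand. Npm2 (ENSMUSG00000047911) spans chr14:70647302-70659244 and Npm3 (ENSMUSG00000056209) chr19:45747734-45749591, both on the minus strand. Trim28 (ENSMUSG00000005566) spans chr7:12999114-13031035, Zfp57 (ENSMUSG00000036036) chr17:37001163-37010635 and Ctcf (ENSMUSG00000005698) chr8:105636568-105682922, all on the plus strand, and Zfp445 (ENSMUSG00000047036) spans chr9:122844529-122866006 on the minus strand. None of them lies on chromosome 4, which holds Arid1a.

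Stored oocyte mRNAs are kept or removed during maturation partly through the 3′ end of the message, where the hexamer AATAAA directs polyadenylation and U-rich cytoplasmic polyadenylation elements can lengthen the tail. The last 100 bases of 1 annotated GENCODE M21 transcript per gene were read for AATAAA and for TTTTAT or TTTTAAT on the transcript strand, and all 8 genes held AATAAA. Across 21725 protein-coding genes read in the same way, 61.1% held AATAAA and 16.5% held TTTTAT or TTTTAAT. Among the 8 genes, H1foo alone held such an element, a single TTTTAT that began 45 bases before AATAAA. The windows below are from 3′ untranslated ends of messages that fell (Npm2, Zfp57, Dppa3), rose (Ctcf) or did not pass (H1foo) between GV and MII, 5′ to 3′, with the matched motif in capitals. A match is a description of these letters and not a tested site.

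Npm2 (chr14:70647304-70647333, minus strand, mm10): gcctagggccacAATAAAatttgcatgatc
Zfp57 (chr17:37010575-37010604, plus strand, mm10): cccaccccacaaAATAAAtacaatttttaa
Dppa3 (chr6:122630242-122630271, plus strand, mm10): ccagaaatttgtAATAAAagcatttttgtt
H1foo, polyadenylation signal (chr6:115950202-115950231, plus strand, mm10): tcataatttatcAATAAAgactttgtattc
H1foo, TTTTAT element (chr6:115950157-115950186, plus strand, mm10): cgattctgaagcTTTTATtgtctaataagc
Ctcf (chr8:105682885-105682914, plus strand, mm10): tgctgtacagctAATAAAtcataacggatt

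GV libraries held between 19587421 and 22686587 reads in genes, and MII libraries between 26005880 and 33289150. Depth thus split by stage. Levels are given as CPM, a gene's reads scaled to a common library size, with library totals over tested genes adjusted by the trimmed mean of M values (TMM). Arid1a, which encodes BAF250a, was at 33.0 and 21.7 CPM in knockout MII, against 1617 and 1293 CPM in control MII. At GV it was at 4.87 and 12.9 CPM in knockout and 380 and 458 CPM in control oocytes. The change was -5.73 ± 0.50 at MII (log2 fold change ± SE, edgeR adjusted p = 0.000463) and -5.55 ± 0.50 at GV (adjusted p = 0.000526), so the targeted gene followed the labels. Of 10 oocyte markers all were detected in every group, and their summed level was 10337 to 13692 CPM in knockout MII, 11583 to 13225 CPM in control MII, 37529 to 38621 CPM in knockout GV and 37445 to 46873 CPM in control GV (marker sums are relative to reads in all genes). Over 17 granulosa and cumulus markers the sum was 102 to 120, 159 to 163, 65.9 to 86.1 and 129 to 162 CPM in the same 4 groups. Of these 17 genes, 5, 2, 2 and 3 had 0 reads in both libraries of the group. Over 14 blood and immune markers the sum was 3.67 to 4.18, 6.42 to 19.3, 37.6 to 52.9 and 63.2 to 74.1 CPM. Of these 14 genes, 10, 8, 7 and 7 had 0 reads in both libraries of the group. The somatic sums were lower in knockout than in control libraries at both stages, and their part in the results below was not tested. Fewer oocytes and less RNA per oocyte cannot be told apart in these pooled libraries.

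The 8 messages covered a wide range of levels. Measured per kilobase of exon (RPKM), H1foo was among the 6 most abundant of 12981 protein-coding messages tested in every library, and in control GV it ranked 1 to 3. Dppa3 ranked 8 to 11 in control GV and 30 to 31 in knockout MII. At the other end, Npm3 ranked between 3161 and 6853 and Zfp445 between 5554 and 9461, so neither message was among the most abundant. Together the 8 genes held 0.955% to 1.05% of the reads in genes in knockout MII, 1.26% to 1.35% in control MII, 1.72% to 2.16% in knockout GV and 1.58% to 2.13% in control GV. H1foo alone accounted for 0.628% to 1.10% of the reads.

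**Figure D1:**
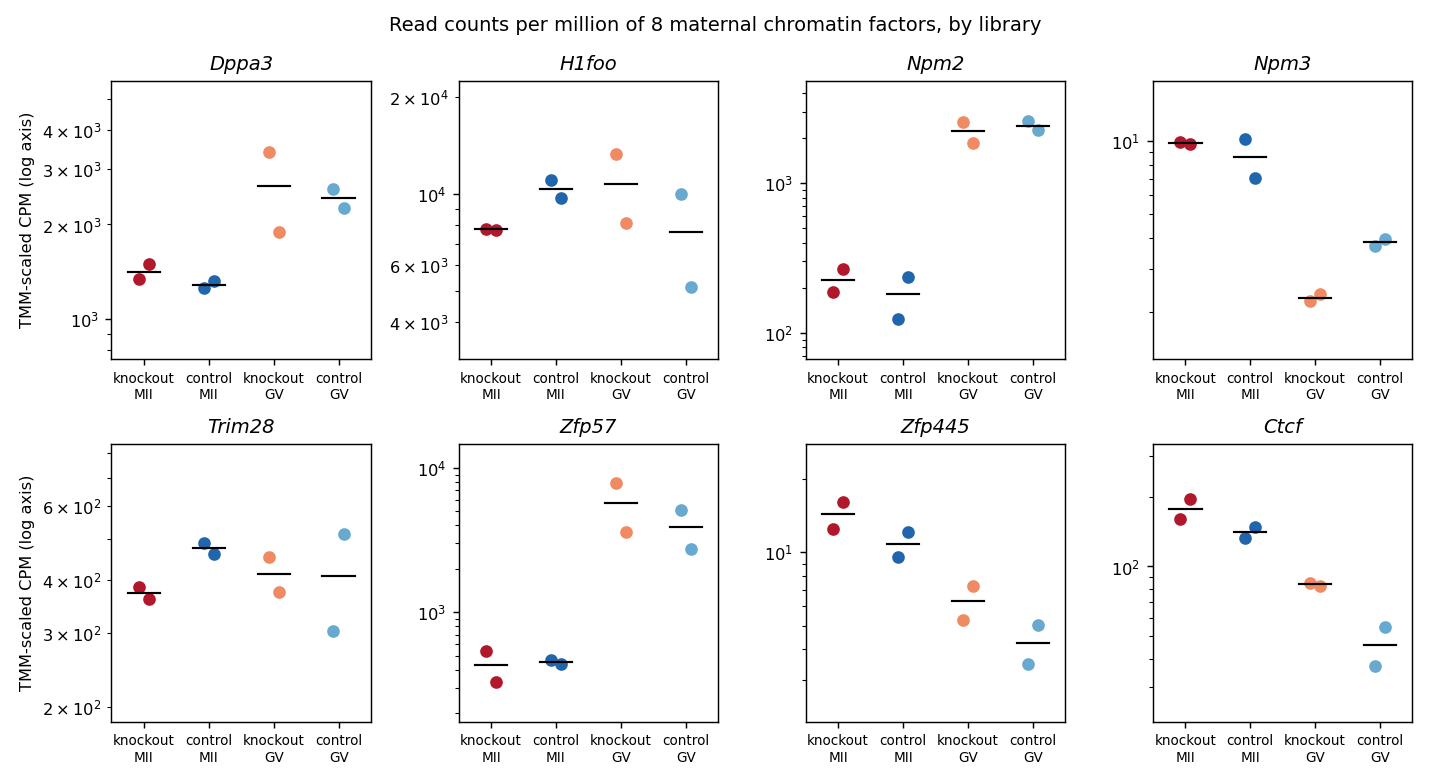
TMM-scaled CPM (log axis, own range per gene) of each factor in every library, with points for the 2 libraries of a group and a bar at their mean. Npm2 and Zfp57 sit about an order of magnitude lower at MII, Npm3, Zfp445 and Ctcf sit higher at MII, and H1foo and Trim28 do not separate the stages in both genotypes.

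The first question was how these stored messages change as the oocyte matures from GV to MII, in each genotype. Of the 8 factors, 5 passed in knockout oocytes, with 2 higher and 3 lower at MII, and 5 passed in control oocytes, also 2 higher and 3 lower. Over all 15572 genes tested, 49.0% passed in knockout oocytes (19.9% higher and 29.1% lower) and 49.1% in control oocytes (21.2% higher and 27.9% lower), so the count of 5 of 8 lies near the background. Npm2, Zfp57 and Dppa3 fell in both genotypes and Ctcf rose in both. Rises and falls throughout are in scaled CPM, which does not give the amount of a message per oocyte. Npm3 passed as higher at MII in knockout oocytes only, and Zfp445 in control oocytes only. Both also had positive values in the other genotype, 1.16 for Npm3 and 1.19 for Zfp445. Neither differed between genotypes in the edgeR test of the difference (adjusted p = 0.692 and 0.992). The median log2 fold change of the 8 factors was -0.31 in knockout and 0.34 in control oocytes, against -0.33 and -0.20 over all genes. The 2 maturation comparisons share no library, but each gene's spread was estimated once over all 8 libraries.

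Npm2, the oocyte nucleoplasmin, was at 187 and 266 CPM in knockout MII against 2562 and 1861 CPM in knockout GV, a log2 fold change of -3.29 ± 0.40 (adjusted p = 0.000116). In control oocytes it was at 124 and 237 CPM at MII against 2577 and 2259 CPM at GV, a log2 fold change of -3.74 ± 0.41 (adjusted p = 7.16e-05), or 13.4-fold lower. Every MII library lay below every GV library, and the call held whichever library was left out. Npm2 shares 39 bases of exon with Xpo7 on the same strand, 3.76% of its exonic length, and reads there may count for neither gene.

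Zfp57, the KRAB zinc finger reader of methylated imprints, showed a fall of like size. It was at 541 and 326 CPM in knockout MII against 7863 and 3611 CPM in knockout GV (-3.72 ± 0.50, adjusted p = 0.000206), and at 465 and 434 CPM in control MII against 5115 and 2750 CPM in control GV (-3.13 ± 0.48, adjusted p = 0.000508). The 2 GV libraries of each genotype lay far apart, with library 1 the higher in both. All MII libraries were nonetheless below all GV libraries, and the call held in every fit that left a library out.

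Dppa3, the protector of maternal methylation, fell by a smaller amount. It was at 1340 and 1493 CPM in knockout MII against 3399 and 1891 CPM in knockout GV (-0.90 ± 0.33, adjusted p = 0.0448), and at 1256 and 1319 CPM in control MII against 2591 and 2255 CPM in control GV (-0.91 ± 0.33, adjusted p = 0.0428). The stages did not overlap in either genotype. Both calls were close to the threshold: leaving out any 1 of the 4 control libraries took the control call to an adjusted p between 0.0702 and 0.158. Of the 8 libraries, 6 ended the knockout call when left out (adjusted p between 0.0503 and 0.244), and without knockout GV library 1 the knockout value was -0.46 ± 0.28. That library also had the lowest TMM scaling factor, 0.779 against 0.919 to 1.22 in the others, and its part in the result was not tested further. The processed pseudogene Dppa3-ps on chromosome X held 8 to 23 reads a library, against 32652 to 60020 for Dppa3.

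Ctcf, the insulator, rose in both genotypes. It was at 161 and 195 CPM in knockout MII against 85.2 and 82.4 CPM in knockout GV (1.09 ± 0.28, adjusted p = 0.0088), and at 133 and 149 CPM in control MII against 37.1 and 54.5 CPM in control GV (1.62 ± 0.28, adjusted p = 0.00103). No MII library was as low as any GV library. Exons of Agrp and Gm5914 overlap those of Ctcf on the other strand, and neither gene held more than 5 reads in a library. The control call held in every fit that left a library out; the knockout call was lost without knockout GV library 2 (adjusted p = 0.0545) and without knockout MII library 2 (adjusted p = 0.0516).

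Npm3, the broadly expressed nucleoplasmin relative, was at 9.89 and 9.70 CPM in knockout MII against 2.21 and 2.35 CPM in knockout GV, a log2 fold change of 2.10 ± 0.54 (adjusted p = 0.00911). In control oocytes it was at 10.2 and 7.07 CPM at MII against 3.71 and 3.98 CPM at GV (1.16 ± 0.52, adjusted p = 0.0887), so the groups were separate but the gene did not pass. The knockout call was lost without knockout GV library 1 (adjusted p = 0.0781) or library 2 (adjusted p = 0.064). The values rest on few reads, 39 and 57 in knockout GV and 80 and 95 in control GV. The antisense gene Gm15491 shares 84 bases of exon with Npm3, and since the strand setting is not given, its reads and those of Npm3 cannot be told apart there. The pseudogene Npm3-ps1 held 17 reads in knockout GV library 2 and at most 2 in any other. Gm15491 held 2 and 0 reads in knockout MII, 11 and 5 in control MII, 0 and 0 in knockout GV and 7 and 10 in control GV.

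Zfp445, the other KRAB zinc finger protein that acts on imprints, was at 12.5 and 16.2 CPM in knockout MII against 5.27 and 7.31 CPM in knockout GV (1.19 ± 0.48, adjusted p = 0.0638). In control oocytes it was at 9.62 and 12.1 CPM at MII against 3.48 and 5.03 CPM at GV (1.35 ± 0.49, adjusted p = 0.0407). The stages did not overlap in either genotype. The control call was lost in 6 of the 8 fits that left a library out (adjusted p up to 0.229 without control GV library 1) and in 4 other settings, while DESeq2 called the knockout rise (adjusted p = 0.0458).

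H1foo and Trim28 did not pass between stages in either genotype. H1foo, the linker histone, was at 7770 and 7733 CPM in knockout MII against 13334 and 8103 CPM in knockout GV (-0.47 ± 0.41, adjusted p = 0.361), and at 11041 and 9717 CPM in control MII against 10022 and 5158 CPM in control GV (0.45 ± 0.41, adjusted p = 0.379). The stages were separate in knockout and overlapped in control oocytes. The 95% interval of its log2 fold change was -1.37 to 0.435 in knockout and -0.451 to 1.35 in control oocytes. Trim28, the corepressor, was at 386 and 360 CPM in knockout MII against 453 and 374 CPM in knockout GV (-0.15 ± 0.30, adjusted p = 0.703), and at 491 and 461 CPM in control MII against 303 and 514 CPM in control GV (0.22 ± 0.30, adjusted p = 0.564). Its intervals were -0.816 to 0.516 in knockout and -0.445 to 0.888 in control oocytes. The stages overlapped for Trim28 in both genotypes.

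**Figure D2:**
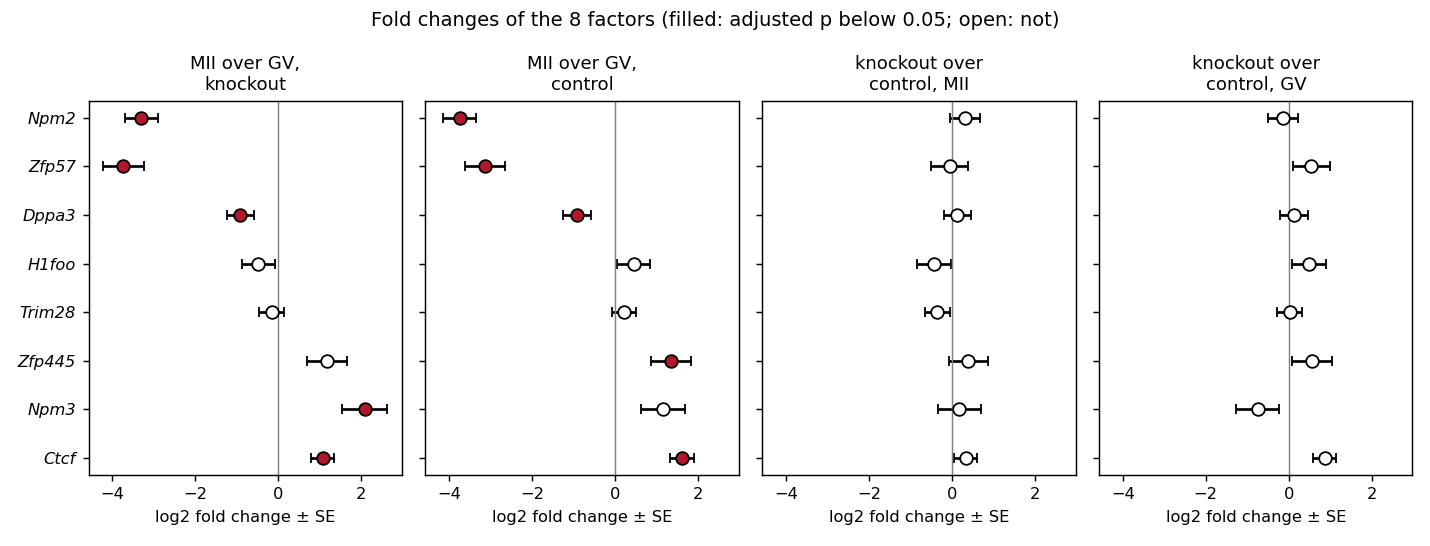
Log2 fold change ± SE (horizontal axis) of each factor in the 2 maturation comparisons and the 2 knockout comparisons, with filled points where the edgeR adjusted p was below 0.05. Filled points stand only in the maturation panels, from -3.74 for Npm2 in control oocytes to 2.10 for Npm3 in knockout oocytes; all 16 knockout points are open.

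Because CPM values are shares of a library, ratios between 2 factors in the same library were also taken, per kilobase of exon, where library scaling cancels. They are given as a description with no test. Npm2 reads exceeded Npm3 reads 21.6-fold and 31.4-fold in knockout MII and 14.0-fold and 38.4-fold in control MII, against 1329-fold and 905-fold in knockout GV and 795-fold and 650-fold in control GV. Npm2 thus remained the more abundant nucleoplasmin message at MII in all libraries, by a far smaller margin. Zfp57 exceeded Zfp445 84.9-fold and 39.4-fold in knockout MII and 94.7-fold and 70.1-fold in control MII, against 2921-fold and 967-fold in knockout GV and 2875-fold and 1070-fold in control GV.

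The message of ZFP57 came closer to that of its corepressor at MII. The level of such a ratio depends on the exon length taken for each gene. The ratio of Zfp57 to Trim28 was 1.54 and 0.995 in knockout MII and 1.04 and 1.03 in control MII, against 19 and 10.6 in knockout GV and 18.5 and 5.88 in control GV. The ratio of H1foo to Npm2 went the other way, at 35.9 and 25.1 in knockout MII and 76.7 and 35.4 in control MII, against 4.49 and 3.76 in knockout GV and 3.36 and 1.97 in control GV. For these 4 ratios the genotypes overlapped at MII. At GV they overlapped for both Zfp57 ratios, whereas the knockout libraries stood above the control libraries for Npm2 to Npm3 and for H1foo to Npm2.

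Of 3 further ratios, 2 separated the genotypes at MII. Ctcf to Trim28 was 0.357 and 0.463 in knockout MII and 0.231 and 0.276 in control MII, against 0.161 and 0.188 in knockout GV and 0.105 and 0.0908 in control GV, so it was higher in knockout libraries at both stages. H1foo to Dppa3 was 4.31 and 3.85 in knockout MII and 6.53 and 5.47 in control MII, against 2.91 and 3.18 in knockout GV and 2.87 and 1.70 in control GV, lower in knockout libraries at MII and higher at GV. Dppa3 to Npm2 was 8.34 and 6.52 in knockout MII and 11.7 and 6.47 in control MII, against 1.54 and 1.18 in knockout GV and 1.17 and 1.16 in control GV. Its genotypes overlapped at MII and did not at GV. In all 7 ratios the MII libraries were separate from the GV libraries. The 7 pairs were picked from the 8 factors. How often other pairs of genes separate the genotypes or the stages was not counted.

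**Figure D3:**
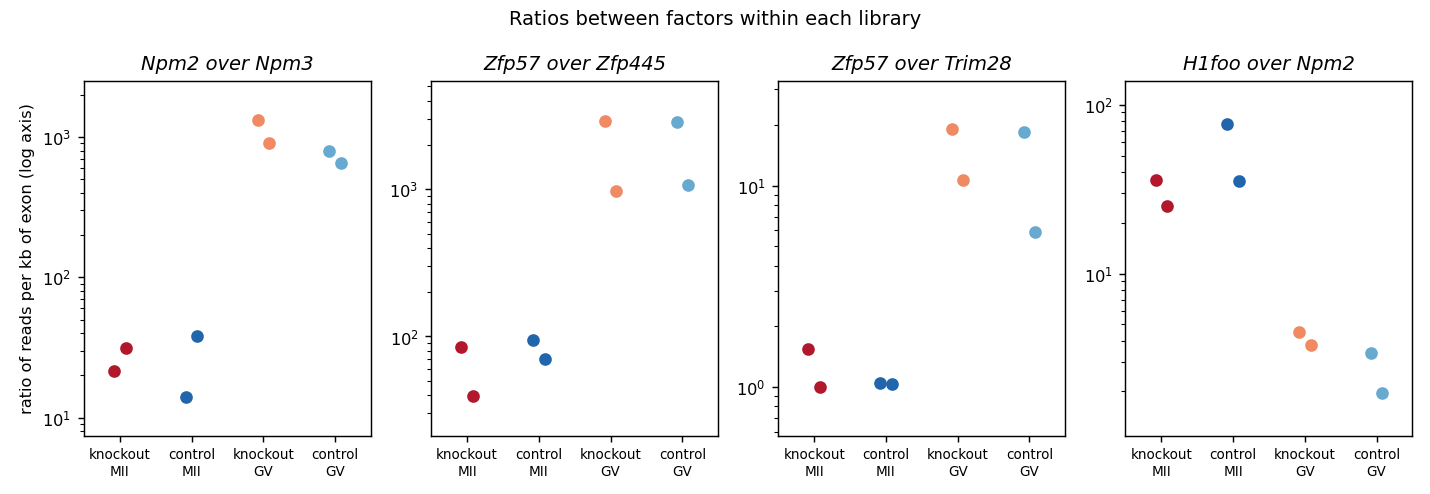
Ratios of reads per kilobase of exon between pairs of factors in each library (log axis, own range per pair), with the 4 groups from knockout MII to control GV along the horizontal axis. Zfp57 to Trim28 lies between 0.995 and 1.54 in the MII libraries and between 5.88 and 19 in the GV libraries.

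The second question was whether loss of BAF250a changed these messages at MII. None of the 8 factors passed by edgeR or DESeq2, where 5.14% of all 15572 genes did by edgeR (1.70% higher and 3.44% lower). None had an unadjusted p below 0.05 by edgeR, where 3450 of all genes did. Ctcf was at 161 and 195 CPM in knockout and 133 and 149 CPM in control MII (0.34 ± 0.275, adjusted p = 0.527), and Zfp445 at 12.5 and 16.2 CPM in knockout and 9.62 and 12.1 CPM in control MII (0.40 ± 0.475, adjusted p = 0.688). H1foo was at 7770 and 7733 CPM in knockout and 11041 and 9717 CPM in control MII (-0.42 ± 0.41, adjusted p = 0.603), and Trim28 at 386 and 360 CPM in knockout and 491 and 461 CPM in control MII (-0.35 ± 0.30, adjusted p = 0.548). In these 4 genes, and in Dppa3, the 2 groups did not overlap, and none of the 5 differences passed. The share of all genes whose groups separate was not counted for any comparison, so non-overlap is a description only. The 95% intervals of the log2 fold change were -0.272 to 0.949 for Ctcf, -1.32 to 0.481 for H1foo and -1.02 to 0.314 for Trim28. The remaining values were 0.14 ± 0.33 for Dppa3, 0.33 ± 0.365 for Npm2, 0.18 ± 0.51 for Npm3 and -0.05 ± 0.45 for Zfp57.

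The same was asked of GV oocytes, in which 0.989% of all genes passed (0.597% higher and 0.392% lower). None of the 8 factors did, by edgeR or by DESeq2. Of the 8, Ctcf alone had an unadjusted p below 0.05 by edgeR, which 1687 of all 15572 genes had. Ctcf was at 85.2 and 82.4 CPM in knockout GV against 37.1 and 54.5 CPM in control GV, and both knockout libraries lay above both control libraries. Its log2 fold change was 0.87 ± 0.28 with a 95% interval of 0.254 to 1.49 (unadjusted p = 0.0103, adjusted p = 0.229). Over 8 alternative settings the value stayed between 0.57 and 0.89, with an adjusted p between 0.129 and 0.68, and it lay between 0.62 and 1.18 when single libraries were left out.

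Npm3 had the lowest fold change of the 8 at GV, at 2.21 and 2.35 CPM in knockout GV against 3.71 and 3.98 CPM in control GV (-0.75 ± 0.53, adjusted p = 0.73). Its groups did not overlap, and nor did those of Zfp445, at 5.27 and 7.31 CPM in knockout and 3.48 and 5.03 CPM in control GV (0.56 ± 0.48, adjusted p = 0.825). H1foo (0.50 ± 0.41, adjusted p = 0.803) and Zfp57 (0.54 ± 0.45, adjusted p = 0.806) overlapped between genotypes, with the highest library of each in knockout GV and the lowest in control GV. Dppa3 differed by 0.13 ± 0.33, Npm2 by -0.13 ± 0.36 and Trim28 by 0.02 ± 0.30. The sign of Trim28 turned with the scaling and the filter, and that of Dppa3 with library totals as the only scaling. The 95% intervals reached from -0.606 to 0.859 for Dppa3 and from -0.937 to 0.679 for Npm2.

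Whether the effect of the knockout differed by stage was tested as an interaction. None of the 8 passed, where 0.0835% of all genes did (0.00642% higher and 0.0771% lower). None had an unadjusted p below 0.05, where 1787 of all 15572 genes did. The largest differences were 0.93 ± 0.74 for Npm3 (adjusted p = 0.692) and -0.92 ± 0.575 for H1foo (adjusted p = 0.589). H1foo was lower in knockout than in control libraries at MII and had the higher mean in knockout at GV, but at GV the libraries overlapped.

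Ordered by level, Ctcf and Zfp445 had the same sequence of 4 groups, none of which overlapped its neighbour: knockout MII was highest, then control MII, knockout GV and control GV. The steps between genotypes did not pass for either gene at either stage. With 2 libraries in each group such orders are a description only, and how often other genes show them was not counted. Dppa3 and Zfp57 were highest in knockout GV, with control GV next and overlapping it; for Dppa3 knockout MII stood above control MII without overlap, and for Zfp57 the MII groups overlapped. Npm2 ran from control GV through knockout GV and knockout MII to control MII, with overlap between genotypes at each stage. Npm3 ran from knockout MII and control MII, which overlapped, to control GV and then knockout GV, which did not. H1foo was highest in knockout GV, then control MII, knockout MII and control GV, and only the MII groups stood apart as neighbours. Trim28 was highest in control MII, apart from knockout GV, while knockout GV, control GV and knockout MII overlapped in turn.

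Likeness of pattern was measured as the distance between log2 CPM profiles over the 8 libraries, each centred on its mean. Zfp445 and Ctcf lay 0.535 apart, the closest pair among the 8. Against 8161 other protein-coding genes with a mean of at least 5 CPM, the nearest profiles to Zfp445 were Kpna3, an importin alpha (0.198), and Eif3e, a translation initiation subunit (0.206). Zfp655 (0.347) and Vapa (0.353) were nearest to Ctcf, and Syce2, of the synaptonemal complex (0.344), and Rnf185 (0.357) to Dppa3. Nearest to Npm2 were Rnf40, a ligase of histone H2B ubiquitination (0.478), and Aig1 (0.549), and nearest to Zfp57 were Rps12, a ribosomal protein gene (0.417), and H2afx, a histone variant gene (0.682). All libraries share depth and scaling between genes, so such distances describe these libraries only.

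Genes that act with the 8 factors were read from 6 lists. Of the 115 list genes tested, 2 passed between knockout and control at MII (1.74%, against 5.14% of all genes), both lower in knockout, and 0 passed at GV (against 0.989% of all genes). By edgeR 12 of them had an unadjusted p below 0.05 at GV and 18 at MII. Over all 15572 genes tested, 1687 and 3450 had one. DESeq2 called 2 of the list genes at GV and 8 at MII, against 519 and 1923 genes in all. Mbd1, a methyl-CpG binding protein, fell to 0.165 ± 0.0196 CPM in knockout MII, against 2.32 ± 0.751 CPM in control MII (SD, n = 2 each). Its log2 fold change was -3.77 ± 0.70 (edgeR adjusted p = 0.0153). The knockout MII level rests on few reads: 3 counts equal 0.0901 and 0.104 CPM in those libraries before TMM scaling. H13, whose transcript ends are imprinted, fell to 39.2 ± 2.36 CPM in knockout MII, against 94.2 ± 2.71 CPM in control MII (-1.27 ± 0.31, adjusted p = 0.0435). The call of Mbd1 held with each library left out and was lost when only the 4 MII libraries were fitted (adjusted p = 0.171). The call of H13 was lost without any 1 of the 4 MII or 2 control GV libraries (adjusted p between 0.0749 and 0.152), and with DESeq2 size factors in edgeR (-1.24, adjusted p = 0.0597). List medians between knockout and control ran from 0.13 to 0.31 at MII and from -0.25 to 0.28 at GV, against -0.01 and 0.00 over all genes.

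During maturation each list held genes that rose and genes that fell. Their counts are to be read against all genes, of which 19.9% rose and 29.1% fell in knockout oocytes and 21.2% rose and 27.9% fell in control oocytes, with median log2 fold changes of -0.33 and -0.20. Of 20 tested genes that work with TRIM28, 7 rose and 4 fell in knockout oocytes and 7 rose and 2 fell in control oocytes, with medians of -0.25 and -0.09. Smarcad1, a remodeller that binds TRIM28, rose to 125 ± 52.3 CPM in knockout MII, against 14.6 ± 4.36 CPM in knockout GV (3.09 ± 0.38), and to 79.5 ± 2.17 CPM in control MII, against 11.4 ± 1.92 CPM in control GV (2.80 ± 0.38). Setdb1, the methyltransferase that TRIM28 recruits, fell in knockout oocytes, to 75.3 ± 46.0 CPM at MII against 257 ± 20.8 CPM at GV (-1.77 ± 0.42, adjusted p = 0.00618). In control oocytes Setdb1 was at 135 ± 28.6 CPM at MII and 180 ± 57.3 CPM at GV (-0.41 ± 0.41, adjusted p = 0.434), and the difference between genotypes did not pass (adjusted p = 0.419).

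Of 24 histone chaperones and nucleoplasmin relatives, 11 rose and 3 fell in knockout oocytes and 10 rose and 4 fell in control oocytes, with medians of 0.81 and 0.70. Chaf1b, a subunit of the chromatin assembly factor that loads histones at replication, fell to 0.247 ± 0.0294 CPM in knockout MII, against 39.6 ± 7.78 CPM in knockout GV (-7.29 ± 0.65), and to 1.11 ± 0.811 CPM in control MII, against 54.3 ± 17.7 CPM in control GV (-5.59 ± 0.58). Asf1b, a chaperone of histones H3 and H4, rose to 570 ± 82.4 CPM in knockout MII, against 139 ± 1.14 CPM in knockout GV (2.04 ± 0.265), and to 506 ± 49.5 CPM in control MII, against 150 ± 15.8 CPM in control GV (1.76 ± 0.26). Of 9 other linker histone genes 5 could be tested: H1f0 rose in both genotypes, by 1.36 ± 0.29 in knockout and 0.85 ± 0.28 in control oocytes, and H1fx fell in both, with -4.07 ± 0.72 and -5.59 ± 0.78. The control rise of H1f0 was lost in 9 of 14 other settings (adjusted p up to 0.139). Hist1h1a fell in knockout oocytes (-4.33 ± 1.26, adjusted p = 0.0161), a call lost without knockout GV library 1 or 2 or knockout MII library 2 (adjusted p up to 0.0644). It was at -1.70 ± 1.09 in control oocytes (adjusted p = 0.219), and the difference did not pass (adjusted p = 0.567).

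Among 23 genes of DNA methylation that act beside DPPA3, 7 rose and 5 fell in knockout oocytes and 8 rose and 5 fell in control oocytes, with medians of 0.47 and 0.19. Dnmt1, the maintenance methyltransferase, fell to 432 ± 139 CPM in knockout MII, against 4612 ± 441 CPM in knockout GV (-3.42 ± 0.38), and to 332 ± 113 CPM in control MII, against 3111 ± 153 CPM in control GV (-3.23 ± 0.38). Dnmt3a, a de novo methyltransferase, fell in both genotypes, with -2.47 ± 0.31 in knockout and -2.04 ± 0.31 in control oocytes. Dnmt3l, its cofactor, fell in both as well, with -2.30 ± 0.35 in knockout and -2.38 ± 0.35 in control oocytes. Hells, a remodeller needed for methylation of repeats, rose by 3.08 ± 0.28 in knockout and 2.63 ± 0.28 in control oocytes. Of 19 tested genes of CTCF and loop extrusion, 9 rose and 3 fell in knockout oocytes and 10 rose and 5 fell in control oocytes, with medians of 1.34 and 1.19. Wapl, which releases cohesin, rose to 547 ± 162 CPM in knockout MII, against 114 ± 3.51 CPM in knockout GV (2.27 ± 0.30), and to 475 ± 20.2 CPM in control MII, against 81.8 ± 15.0 CPM in control GV (2.54 ± 0.30). Rad21, a cohesin subunit, rose to 127 ± 19.7 CPM in knockout MII, against 30.7 ± 0.792 CPM in knockout GV (2.05 ± 0.275), and to 113 ± 14.8 CPM in control MII, against 14.8 ± 1.14 CPM in control GV (2.93 ± 0.29); the difference did not pass (adjusted p = 0.411). Stag3, the meiotic cohesin subunit, was at 0.317 ± 0.406 CPM in knockout MII and 2.56 ± 0.818 CPM in knockout GV (-3.02 ± 1.35, adjusted p = 0.0903). It had 0 reads in control MII and was at least 19.8-fold lower there than in control GV (floor of 3 counts per library), and the difference between genotypes did not pass (adjusted p = 0.398).

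Of 24 tested transcripts of imprinted loci, 4 rose and 5 fell in knockout oocytes and 6 rose and 5 fell in control oocytes, with medians of 0.25 and 0.55. H13 fell in both, to 39.2 ± 2.36 CPM in knockout MII against 405 ± 166 CPM in knockout GV (-3.37 ± 0.33) and to 94.2 ± 2.71 CPM in control MII against 510 ± 14.2 CPM in control GV (-2.44 ± 0.32). Commd1 changed by -3.55 ± 0.42 in knockout and -3.97 ± 0.43 in control oocytes, and Gnas, a G protein locus, by 3.36 ± 0.81 and 2.06 ± 0.77. The control call of Gnas was lost in 8 of 13 other settings (adjusted p up to 0.217), and its knockout call without knockout GV library 1 (adjusted p = 0.0646). Gene counts do not separate the parental alleles.

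**Figure D4:**
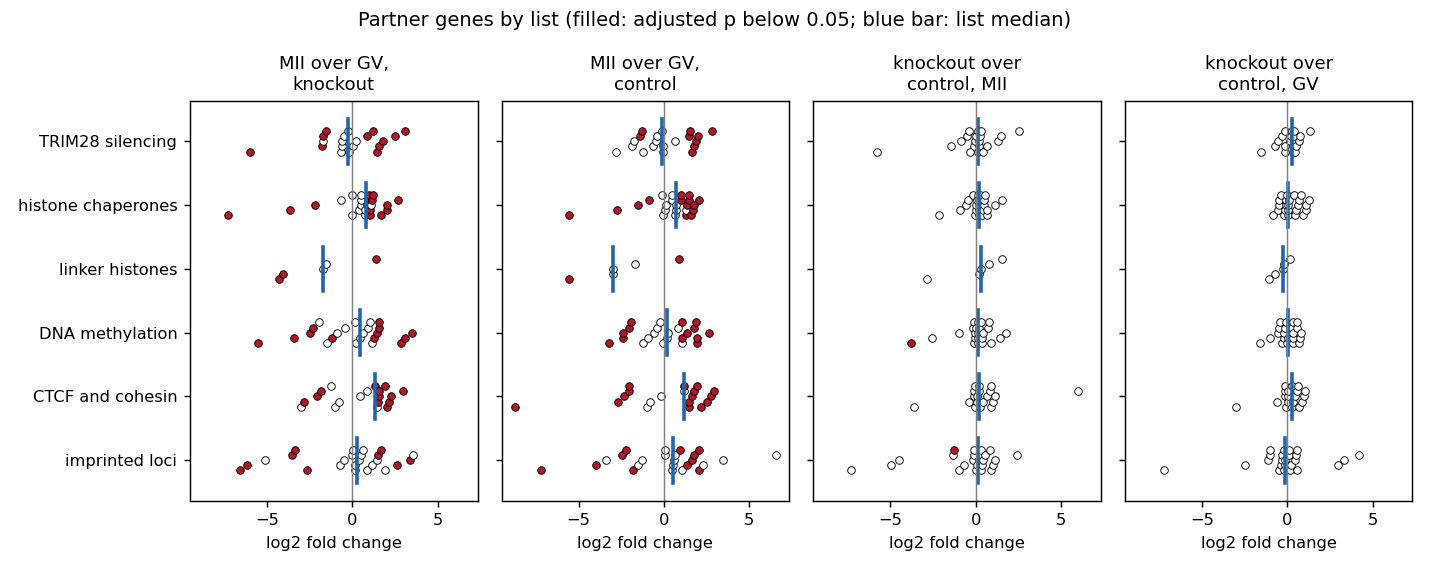
Log2 fold changes (horizontal axis) of the tested genes of 6 partner lists in 4 comparisons, with filled points for genes with an edgeR adjusted p below 0.05 and a blue bar at the list median. Filled points fill both sides of 0 in the maturation panels, whereas the knockout panels hold 2 filled points, Mbd1 at -3.77 and H13 at -1.27, both at MII.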

How the data were processed

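The deposited values were counts: the authors' table gives whole-number reads per Ensembl gene for 8 libraries, with 5 HTSeq summary entries that were left out. Those entries held 32.24% to 35.13% of the reads in GV libraries and 22% to 26.15% in MII libraries. This share thus split by stage, and its part in the maturation results was not tested. The submitters' processing notes name mm10, Bowtie2, HTSeq and edgeR; the sources used here give no version, annotation release or strand setting. Per the file headers, a single name heads 2 control MII columns, which are called libraries a and b. No value column was left unused (0). Replicate columns differed beyond sampling noise (chi-square per degree of freedom 52.2 to 115).

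Symbols, positions and exon lengths came from GENCODE M21, which matched 54809 of 54838 entries. The fit used edgeR 4.0.16 under R 4.3.3: filterByExpr left 15572 genes, TMM scaling, 1 term per group over all 8 libraries, and two-sided quasi-likelihood F-tests of 5 contrasts with Benjamini-Hochberg adjustment over all tested genes, called below 0.05. The SE is the log2 fold change divided by the square root of F, and 95% intervals use the test's degrees of freedom. RPKM is CPM per kilobase of exon. The fit was tested on simulated data. It recovered 8.96% of log2 changes of 1 between knockout and control at GV, 11.9% at MII and 1.49% for the stage difference. For log2 changes of 2 it recovered 67.2%, 79.1% and 32.8%. A factor that did not pass is therefore not shown to be unchanged. Between knockout and control, the 95% intervals of the 8 factors lay between -1.93 (Npm3 at GV) and 1.64 (Zfp445 at GV). For the stage difference they lay between -2.19 (H1foo) and 2.57 (Npm3). Floors of 3 counts cover counting error only. Named genes are the 8 factors, Arid1a, pseudogenes and exon-overlapping genes. Also named are some, not all, of the partner genes called among the 5 largest changes of their list. The 2 nearest profiles are named for some of the factors only. Values in the other genotype stand beside some of these genes. The factors and lists were chosen with earlier results of these data known. Alternatives were other scalings, filters, DESeq2 1.42.0, smaller fits, single libraries left out and a replicate block.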

Additional observations from a re-analysis of the deposited data

How the results depend on the processing

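The falls of Npm2 and Zfp57 in both genotypes and the rise of Ctcf in control oocytes, kept their direction and call under every setting and every library left out. Zfp445 in control maturation lost its call with DESeq2 size factors in edgeR (1.23, adjusted p = 0.055), library totals (1.18, 0.128), no filter (1.31, 0.0979) and only the 4 libraries compared (1.31, 0.0645); Dppa3 in knockout maturation lost it with only those 4 libraries (-0.91, adjusted p = 0.111). At GV the knockout effect of Trim28 turned to -0.00406 with DESeq2 size factors, -0.31 with library totals, -0.00399 with DESeq2 and -0.033 in genes averaging 5 CPM or more, that of Dppa3 to -0.21 with library totals, and the stage difference of Zfp445 to 0.0166 with library totals. Library totals moved the median of all genes at GV by -0.27 and took the higher share of all GV calls to 48.8%, against 60.4% with TMM. Genes called between knockout and control at GV numbered 154, and 519 with DESeq2, 527 with no filter and 702 with only the 4 libraries; at MII they numbered 800, and 1923, 1829 and 392. For the difference between stages the count was 13, and 383 with DESeq2, 498 with no filter, 41 in genes averaging 5 CPM or more, 1 with DESeq2 size factors in edgeR and 2 with library totals; the cause was not tested.

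With single libraries left out, genes called numbered 29 to 187 at GV, 440 to 771 at MII, 5075 to 7974 for control maturation, 5240 to 7867 for knockout maturation and 0 to 23 for the difference, and factors called numbered 0, 0, 3 to 5, 3 to 5 and 0. The knockout effect then spanned 0 at GV for Dppa3 (-0.34 to 0.50), Npm2 (-0.364 to 0.0901), Trim28 (-0.31 to 0.45) and Zfp57 (-0.11 to 1.07), and at MII for Npm2 (-0.0507 to 0.922) and Zfp57 (-0.45 to 0.34). So did Trim28 in control maturation (-0.12 to 0.64), and the stage difference of Dppa3 (-0.36 to 0.52), Zfp57 (-1.12 to 0.11) and Zfp445 (-0.454 to 0.0876). A group left with 1 library was assumed to vary like the others. Of 57 partner results, 43 kept their call in every setting tried, 14 lost it in at least 1 and 0 reversed.

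The labels repeat replicate numbers across groups, and same-numbered libraries correlated in their deviations by 0.119 (knockout GV with control GV), 0.0127 (knockout MII with control GV) and -0.02 (knockout MII with knockout GV), which was too little to take them as pairs; a shared batch was not tested. With the replicate block over the 6 libraries whose columns carry one, 133 genes were called at GV and 7736 in knockout maturation, with 0 and 4 of the 8 factors; Dppa3 was at -0.84 (adjusted p = 0.0836). The same 6 libraries without the block, a setting chosen after seeing the data, gave 150 and 8154 genes and also 0 and 4 factors.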
